A study of Mus musculus with 30 samples.

Results

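Egfl7, Kdr, Flt1, Tek, Pecam1, Cdh5, Cldn5 and Ly6c1 are 8 genes by which endothelial cells, the lining of blood vessels, are commonly recognised. They are 8 of the 53974 genes in a table of RNA levels from mouse embryonic forebrain and from neural stem/progenitor cells (NSPCs) grown from it. They were picked by name as endothelial genes, and the choice was made knowing that Egfl7 and Kdr were higher after MS-275. For that reason their values after MS-275 are described here and not tested. Crotonate is tested, but against the same control cultures, so that test is not independent of the choice. The NSPCs came from C57BL/6 forebrain of embryos at E13.5. They were expanded with epidermal and fibroblast growth factors and treated at passage 2 to 3 for 24 h. The control cultures received DMSO, and the others received 10 mM crotonate or 1 µM MS-275, with 4 biological replicates in each group. The solvent of crotonate is not stated, and nothing in the labels says that endothelial cells were sorted out of the cultures. One RNA library came from whole E13.5 C57BL/6 forebrain. RNA was also sequenced from E13.5 forebrain explants of the ICR strain, 3 control and 3 with crotonate, whose crotonate dose and duration the sources used here do not give. Chromatin immunoprecipitation (ChIP) gave 1 library for each of 8 peak lists. Of these, 6 used pan-acetyllysine (Kac) or pan-crotonyllysine (Kcr) antibodies in control, crotonate or MS-275 NSPCs, and the others used H3K9ac or H3K9cr antibodies in C57BL/6 forebrain.

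Vascular endothelial growth factor (VEGF), secreted by neural progenitors among other cells, drives vessels into the embryonic forebrain by acting on the receptor made from Kdr. Flt1 makes a second VEGF receptor that mainly holds VEGF back, Tek makes the angiopoietin receptor Tie2, and Egfl7 makes a matrix-bound protein secreted by endothelial cells. Pecam1, Cdh5 and Cldn5 make proteins of the contacts between endothelial cells, and Cldn5 is the main tight junction protein of the blood-brain barrier. Crotonate is a short-chain fatty acid that cells convert to crotonyl-CoA, the donor for histone crotonylation, and MS-275 (entinostat) inhibits histone deacetylases.

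The windows around the starts of these genes, from 250 bases before to 50 bases after, were read from RefSeq on GRCm38.p6. The table held 9 windows for 6 of the 8 genes. Pecam1 and Cdh5 are named only. The 4 windows that follow are shown because they run from the most CG dinucleotides of the 9 to 1, and because peaks lie at or beside the first 2. They are written 5′ to 3′ on the strand of the gene, and the capitals mark CG dinucleotides. They are the third start of Egfl7 (chr2:26586386-26586685, plus strand), Kdr (chr5:75978406-75978705, minus strand), Flt1 (chr5:147725962-147726261, minus strand) and the first start of Ly6c1 (chr15:75048788-75049087, minus strand).
Egfl7 start 3: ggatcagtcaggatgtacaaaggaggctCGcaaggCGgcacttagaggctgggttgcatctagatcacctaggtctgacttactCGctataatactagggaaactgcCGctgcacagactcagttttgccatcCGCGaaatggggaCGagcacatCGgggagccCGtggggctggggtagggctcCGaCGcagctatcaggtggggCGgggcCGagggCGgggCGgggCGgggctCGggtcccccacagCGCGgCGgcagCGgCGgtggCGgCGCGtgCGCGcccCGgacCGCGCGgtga
Kdr: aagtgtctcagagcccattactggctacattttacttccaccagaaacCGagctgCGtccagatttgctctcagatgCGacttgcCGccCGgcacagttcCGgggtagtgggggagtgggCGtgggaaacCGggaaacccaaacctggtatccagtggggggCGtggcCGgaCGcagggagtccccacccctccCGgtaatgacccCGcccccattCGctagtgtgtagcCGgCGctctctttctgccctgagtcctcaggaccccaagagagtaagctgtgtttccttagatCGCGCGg
Flt1: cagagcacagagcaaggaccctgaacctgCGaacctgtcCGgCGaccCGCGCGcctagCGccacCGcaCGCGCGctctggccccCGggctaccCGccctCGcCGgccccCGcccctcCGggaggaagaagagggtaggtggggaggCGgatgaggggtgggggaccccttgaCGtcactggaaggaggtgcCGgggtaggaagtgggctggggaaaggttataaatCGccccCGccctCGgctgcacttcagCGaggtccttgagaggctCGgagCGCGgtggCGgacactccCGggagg
Ly6c1 start 1: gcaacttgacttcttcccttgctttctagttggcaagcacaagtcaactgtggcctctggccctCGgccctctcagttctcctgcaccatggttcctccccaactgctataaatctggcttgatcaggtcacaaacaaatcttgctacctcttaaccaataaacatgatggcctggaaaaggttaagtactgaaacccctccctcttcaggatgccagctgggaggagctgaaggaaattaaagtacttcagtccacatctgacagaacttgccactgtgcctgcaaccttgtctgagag

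The third Egfl7 window holds 31 CG dinucleotides, more than 89.4% of the 32851 windows in the table, whose median is 7. The other 2 Egfl7 windows hold 5 and 8. Flt1 has 29, Kdr 19, Cldn5 12 and Tek 3. The 2 Ly6c1 windows have 1 and 0. GC content ran from 49.0% in the first Ly6c1 window to 70.7% in Flt1, against a median of 52.7% over all windows. The letters CCGGAA, the core that ETS factors bind, were searched on both strands and occurred in the Kdr window only, and in 14.9% of all windows. AACAAT, a core bound by SOX factors, occurred in the Tek window only and in 10.7% of all windows. TATAAA occurred in the Flt1 window and the first Ly6c1 window, and in 13.6% of all windows. None of the 3 strings contains another, and a match describes the sequence alone.

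RNA levels are in TPM, a unit that is scaled for gene length and for the total of a library. Over the 13 libraries, 13444 to 14980 genes reached 1 TPM, and the table gives no read counts, so the depth behind a value is unknown. Fewer cells of a type and less RNA per cell cannot be told apart in such bulk libraries. A gene was tested when 4 or more of the 12 NSPC libraries held 1 TPM or more of it, which 14857 genes did, Egfl7, Kdr and Ly6c1 among them. Flt1, Tek, Pecam1, Cdh5 and Cldn5 stayed under 1 TPM in all 12. Kdr passed the filter through 8 treated libraries alone, since its 4 controls were all under 1 TPM. The same holds for 801 of all genes tested. A gene admitted in this way had to be higher after a treatment, so for those named here the adjusted p comes from a fit of all 28631 genes above 0 in at least 1 NSPC library, without the filter. In the table Cdh5 is listed at 0 in 2 libraries and Cldn5 in 4, and a listed 0 may be a failed estimate.

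Egfl7 (chr2:26581083-26592682), the secreted factor, was the highest of the 8 in every NSPC group. The controls held 5.07, 4.14, 3.51 and 5.80 TPM in replicates 1 to 4, or 4.63 ± 1.01 (SD, n = 4). With crotonate the values were 11.4, 12.1, 8.85 and 9.98 TPM, or 10.6 ± 1.46 (SD, n = 4). With MS-275 they were 42.6, 32.1, 32.2 and 31.7 TPM, or 34.6 ± 5.33 (SD, n = 4). The 3 groups did not overlap, and the lowest MS-275 library was above the highest crotonate library. The whole forebrain, at 14.6 TPM, lay between the crotonate and the MS-275 cultures. Means were 2.29-fold the control with crotonate and 7.49-fold with MS-275.

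Kdr (chr5:75932827-75979072), the main signalling receptor for VEGF, held 0.351, 0.448, 0.782 and 0.547 TPM in the controls, or 0.532 ± 0.185 (SD, n = 4). With crotonate it held 1.57, 2.07, 2.38 and 2.08 TPM, or 2.03 ± 0.336 (SD, n = 4). With MS-275 it held 3.43, 3.49, 4.07 and 3.37 TPM, or 3.59 ± 0.323 (SD, n = 4). Here too the groups did not overlap. Unlike Egfl7, Kdr stayed below the forebrain library, which had 11.3 TPM. The control mean was 4.70% of that level, the crotonate mean 17.9% and the MS-275 mean 31.7%.

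Flt1 (chr5:147561604-147726438), the VEGF-holding receptor, held 0.236, 0.161, 0.152 and 0.195 TPM in the controls. With crotonate it held 0.655, 0.236, 0.517 and 0.217 TPM, and with MS-275 0.652, 0.282, 0.468 and 0.214 TPM. Both treated groups overlapped the controls, and in both the libraries of replicates 1 and 3 were the high ones. The forebrain had 4.13 TPM. Tek (chr4:94739086-94874976), the angiopoietin receptor, held 0.112, 0.206, 0.103 and 0.171 TPM in the controls and 0.195, 0.274, 0.229 and 0.174 TPM with crotonate, which overlap. With MS-275 it held 0.910, 0.489, 0.661 and 0.510 TPM. All 4 of these lie above every control and every crotonate library, and their mean was 4.35-fold the control mean. They stayed under the 3.12 TPM of the forebrain.

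Pecam1 (chr11:106654213-106715281), the adhesion molecule CD31, held 0.285, 0.165, 0.0554 and 0.250 TPM in the controls, 0.196, 0.206, 0.312 and 0.193 TPM with crotonate, and 0.269, 0.296, 0.441 and 0.193 TPM with MS-275. The 3 groups overlap, and all 12 values are far below the 12.6 TPM of the forebrain. Cdh5 (chr8:104101613-104144504), or VE-cadherin, held 0.277, 0.121, 0.340 and 0 TPM in the controls, 0.295, 0.0637, 0.267 and 0.0201 TPM with crotonate, and 0.429, 0, 0.330 and 0.0416 TPM with MS-275. Its groups overlap as well, and within each group replicates 1 and 3 were the 2 high libraries. The forebrain had 9.51 TPM. Cldn5 (chr16:18776847-18778262), the tight junction claudin, held 0.294, 0, 0 and 0.0741 TPM in the controls, 0.544, 0, 0 and 0.207 TPM with crotonate, and 0.619, 0.0771, 0.0760 and 0.355 TPM with MS-275. It was the highest of the 8 genes in the forebrain, at 18.04 TPM, and the lowest in the controls.

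Ly6c1 (chr15:75044018-75048920) makes a membrane-anchored Ly6 antigen found on brain endothelium and on some white blood cells. The controls held 0.768, 0.163, 1.40 and 0.606 TPM, or 0.734 ± 0.513 (SD, n = 4), and the crotonate cultures 0.472, 0.608, 0.294 and 1.502 TPM, or 0.719 ± 0.538 (SD, n = 4). The MS-275 cultures held 6.35, 4.93, 2.83 and 4.95 TPM, or 4.76 ± 1.45 (SD, n = 4). Control and crotonate overlap, and every MS-275 library lies above both, with a mean 6.49-fold the control mean. In the forebrain Ly6c1 had 0.331 TPM, less than in 3 of the 4 controls. Ly6c2, a near-identical copy beside which the counting could split reads, is listed at 0 in all 13 libraries, so the assignment to Ly6c1 is uncertain.

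**Figure D1:**
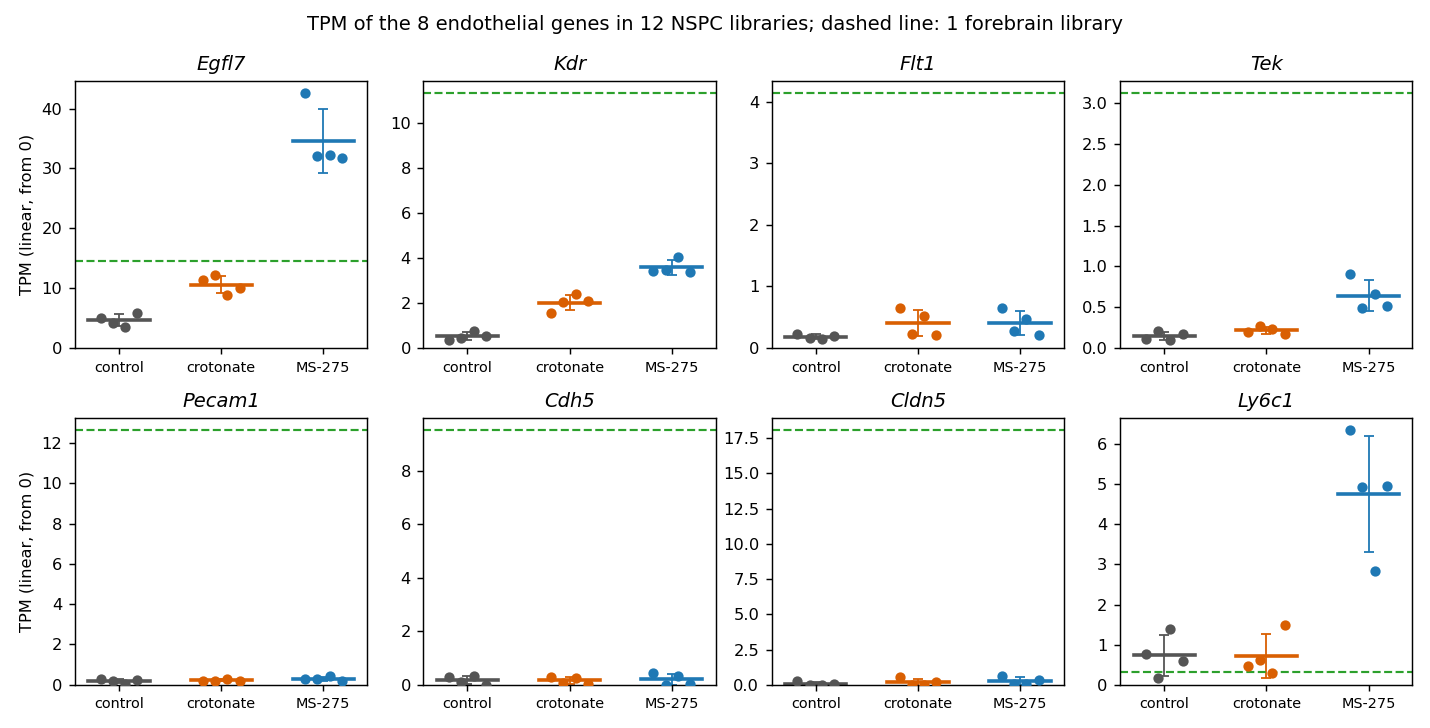
TPM of each gene in the 4 control (grey), 4 crotonate (orange) and 4 MS-275 (blue) NSPC libraries, on linear axes from 0 that differ between panels. Points are libraries, horizontal lines are group means, bars are ± 1 SD, and the dashed green line is the single forebrain library. With MS-275, Egfl7 (31.7 to 42.6 TPM) and Ly6c1 (2.83 to 6.35 TPM) lie above the forebrain line, while Pecam1, Cdh5 and Cldn5 lie near 0 in all 12 cultures.

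In the forebrain 7 of the 8 genes stood above all 4 control cultures, and Ly6c1 was the exception. Of the 29352 genes above 0 in at least 1 of the 13 libraries, 44.7% did so. The forebrain is 1 library without a replicate, so this difference has no replicate check. The 8 genes summed to 73.7 TPM in the forebrain and on average to 6.69 TPM in the controls, 14.5 TPM with crotonate and 44.8 TPM with MS-275. Egfl7 alone made up 19.8% of the forebrain sum, but 69.1% of the control, 72.9% of the crotonate and 77.3% of the MS-275 sum. The order of the genes differed too. It ran Cldn5, Egfl7, Pecam1, Kdr, Cdh5, Flt1, Tek and Ly6c1 from high to low in the forebrain, and Egfl7, Ly6c1, Kdr, Tek, Flt1, Pecam1, Cldn5 and Cdh5 after MS-275. After MS-275 the neighbours from Flt1 downward differed by less than the spread between replicates, and so did those from Pecam1 downward in the controls. Ly6c1 and Kdr also differed by less than the SD of Ly6c1, both after MS-275 and in the controls.

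**Figure D2:**
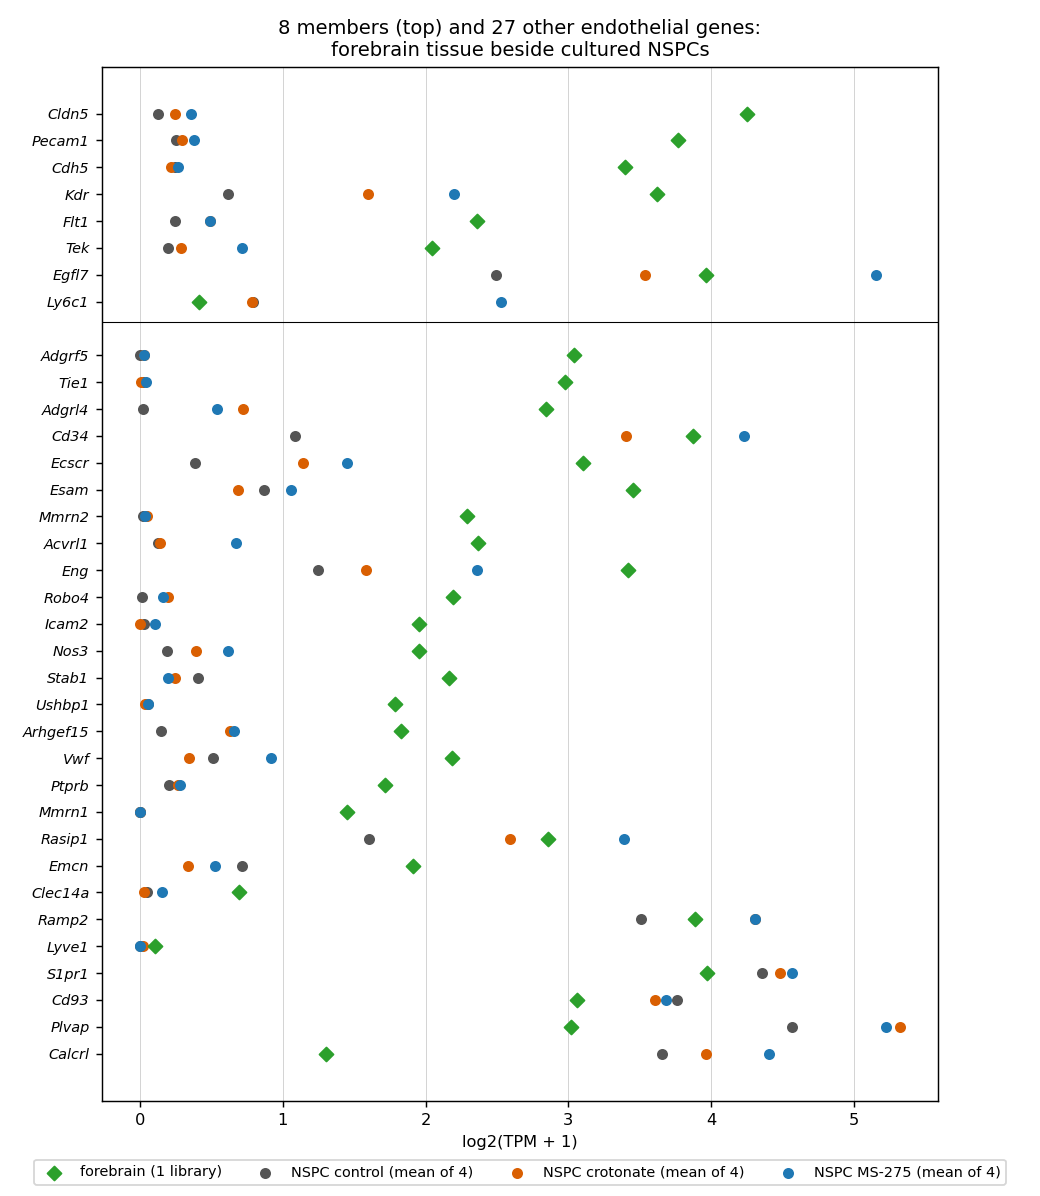
Levels as log2(TPM + 1) of the 8 genes (above the line) and of 27 other endothelial surface, junction and signalling genes (below it), sorted by forebrain against control. Green diamonds are the 1 forebrain library and dots are means of 4 NSPC libraries. Most diamonds lie right of the dots. With MS-275, Egfl7, Ly6c1, Cd34, Rasip1, Ramp2, Plvap, Calcrl, Cd93 and S1pr1 lie right of their diamonds. Of these, Ly6c1, Plvap, Calcrl, Cd93 and S1pr1 already do so in the controls.

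Crotonate against control was tested in 1 limma fit of log2(TPM + 1) over the 12 libraries, adjusted over all 14857 genes tested. Egfl7 rose by 1.05 on that scale (SE 0.14, adjusted p = 6.23e-05). Kdr rose by 0.98 (SE 0.13), with an adjusted p of 0.000167 by limma in the fit without the filter. For Ly6c1 the log2 difference was -0.01 (SE 0.27, adjusted p = 0.976 by limma). In both genes that rose, and in no other of the 8, all 4 crotonate libraries were above all 4 controls, as they were for 17.8% of genes above 0 in at least 1 NSPC library and 29.5% of those tested. Adding 1 TPM to each value understates the change of low genes such as Kdr. Of all genes tested, 48.1% passed the same threshold in either direction and 32.3% were higher, with 15.9% lower, so a gene that rose with crotonate is common in these cultures. The 2 genes that rose are 2 of the 8. Without the filter, 24.1% of 28631 genes passed and 16.7% were higher. The adjusted p of limma was then 0.203 for Flt1, 0.515 for Tek, 0.739 for Pecam1, 0.971 for Cdh5 and 0.747 for Cldn5.

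Scaling the libraries by median-of-ratios size factors moved the median log2 difference of all genes by -0.12 for crotonate. The calls then split into 3503 higher and 4213 lower, 45.4% higher, where the deposited TPM gave 4796 higher and 2356 lower, 67.1% higher. Egfl7 still rose by 0.94 under this scaling (limma adjusted p = 9.72e-05) and the Kdr difference was 0.92.

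MS-275 was compared with the same control libraries. The log2(TPM + 1) differences were 2.67 for Egfl7, 1.74 for Ly6c1 and 1.59 for Kdr. All 4 MS-275 libraries stood above all 4 controls for Egfl7, Kdr, Tek and Ly6c1, and did so for 21.2% of genes above 0 in at least 1 NSPC library and 33.6% of those tested. Among all genes tested, 65.1% passed limma's threshold with MS-275 and 37.4% were higher, with 27.6% lower. Because the genes were chosen with this contrast known, nothing is read from these counts. Set beside crotonate, every MS-275 library was above every crotonate library for Egfl7, Kdr, Tek and Ly6c1, and the others overlapped. The share of all genes that separate in this way was not computed. The MS-275 values were known when the genes were chosen, so nothing is read from this comparison either. The Flt1 means were 0.406 TPM with crotonate and 0.404 TPM with MS-275.

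Replicates with the same number deviated together across the groups, and the share of the variation in log2(TPM + 1) that followed the treatment or the replicate number was computed for each gene. This split was chosen after the values had been seen. For Cdh5 treatment accounted for 0.774% and the replicate number for 91.2%. For Cldn5 these shares were 13.6% and 81.4%, and for Flt1 34.9% and 46.6%. The replicate number accounted for 1.53% in Egfl7 and 3.13% in Kdr, and for a median of 8.52% over the genes tested. The treatment shares hold the MS-275 values that were known when the genes were chosen and are given as a description. In Cdh5, replicates 1 and 3 were above replicates 2 and 4 in all 3 groups. In Cldn5, replicates 1 and 4 were above replicates 2 and 3 in all 3 groups.

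The Cdh5 order was shared by 6 of 10 genes that mark meningeal fibroblasts, Dcn, Lum, Col3a1, Col1a2, Col1a1 and Fn1, which make collagens and other matrix proteins. Dcn (decorin) held 2.55, 0.108, 2.14 and 0.0577 TPM in the controls, and the replicate number accounted for 90.4% of its variation. The shares were 98.7% for Lum, 92.1% for Col3a1, 67.5% for Col1a2, 37.5% for Col1a1 and 2.92% for Fn1. In these 6, replicates 1 and 3 were above 2 and 4 in every group. Of the other 4 markers, Twist1 showed that order with crotonate alone, and Pdgfra, Foxc2 and Ogn in no group. In Pdgfra, replicates 2 and 4 were the high ones among the controls. The 10 meningeal fibroblast markers summed to 15.3 to 27.6 TPM in the controls, 29.7 to 45.1 TPM with crotonate and 38.5 to 57.9 TPM with MS-275. Fn1 alone held 3.67 to 7.15 TPM in the controls, 17.4 to 22.6 TPM with crotonate and 23.2 to 28.0 TPM with MS-275. Every other marker of the list overlapped the controls in both treated groups. None of the 10 was at 0 in all controls, and the part of such cells in the levels of Cdh5 and the other endothelial genes was not tested.

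**Figure D3:**
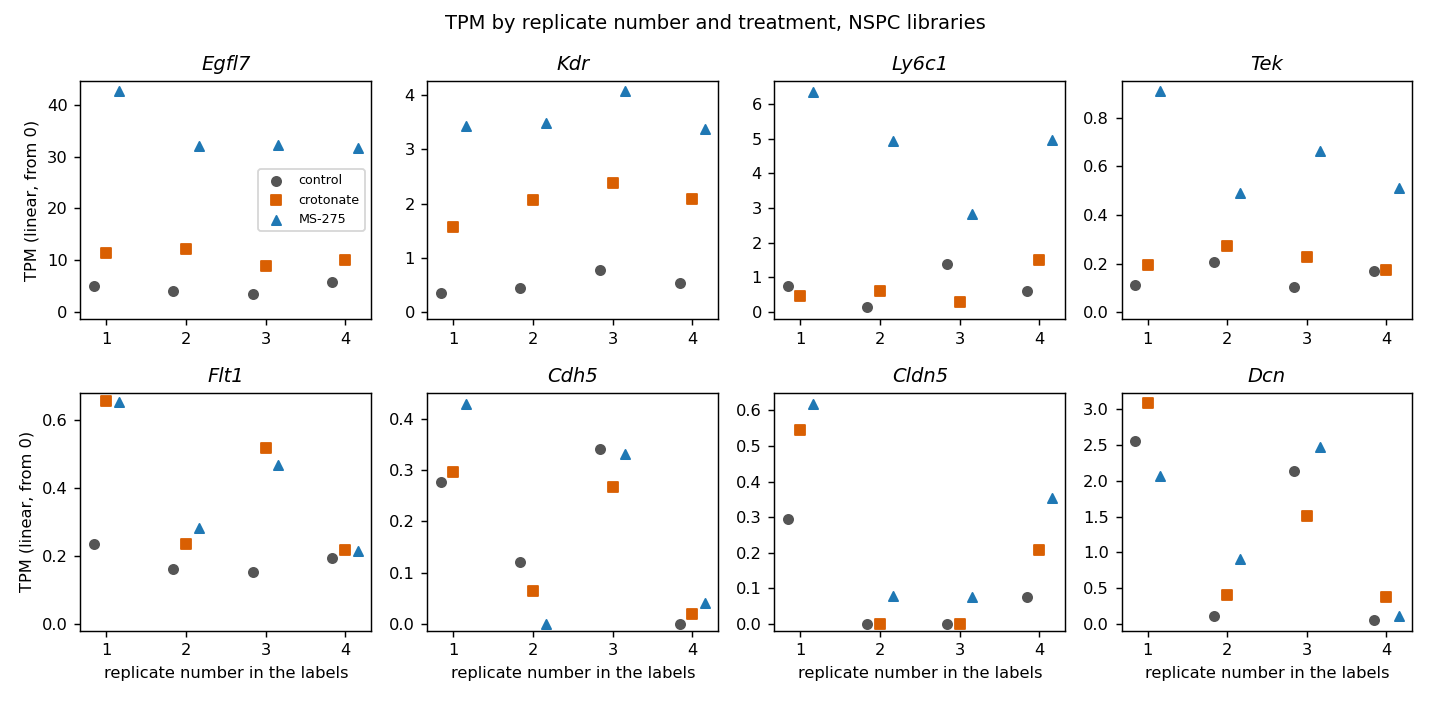
TPM of 7 endothelial genes and of Dcn, a fibroblast matrix gene, by replicate number for control (grey circles), crotonate (orange squares) and MS-275 (blue triangles) libraries, on linear axes from 0. Egfl7, Kdr, Tek and Ly6c1 separate MS-275 from the controls at every number, while Cdh5 and Dcn are high in replicates 1 and 3 whatever the treatment, and Cldn5 in replicates 1 and 4.

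Markers of other cells of the vessel and of blood were looked at in the same libraries. Of 14 microglia and macrophage markers 7 were under 1 TPM in all 12 cultures, Aif1 was at 0 in all controls, and the sum ran from 4.90 to 9.72 TPM in the controls, 2.78 to 10.0 TPM with crotonate and 3.27 to 10.5 TPM with MS-275. The 1 tested marker of that list, Pf4 (platelet factor 4), fell with crotonate from 2.78 to 5.33 TPM to 1.22 to 2.03 TPM (log2 difference -0.98, limma adjusted p = 0.00448), and held 1.24 to 3.73 TPM with MS-275. All 7 globin genes among the 12 erythroid and megakaryocyte markers were at 0 in the 4 controls, and the sum of the list was 2.25 to 3.93 TPM in the controls, 4.01 to 5.04 TPM with crotonate and 8.73 to 10.6 TPM with MS-275. In the forebrain it was 11936 TPM. The 2 tested members of that list, Itga2b and Gp1bb, which make platelet receptor subunits, both rose with MS-275. Gp1bb passed the filter through the 4 MS-275 libraries alone, and without the filter its difference was 0.90 (limma adjusted p = 0.00526). The 14 pericyte and smooth muscle markers summed to 37.2 to 47.1 TPM in the controls, 58.9 to 67.9 TPM with crotonate and 100.04 to 108.0 TPM with MS-275, and Higd1b was at 0 in all 12. Notch3, Cspg4 and Cd248 make up most of these sums, while Abcc9, Vtn, Myh11 and Higd1b were under 1 TPM in all 12. Cspg4 held 15.5 to 18.7 TPM in the controls and 14.5 to 18.6 TPM with crotonate, and rose with MS-275. Of the 6 that were tested, 2 rose with crotonate and 3 with MS-275, and none fell. Cd248, or endosialin, of pericytes and fibroblasts, rose with both treatments, from 3.02 to 4.28 TPM in the controls to 5.75 to 6.87 TPM with crotonate and 21.7 to 26.8 TPM with MS-275. Notch3, the Notch receptor of mural cells, rose with both treatments and reached 41.5 to 45.9 TPM with MS-275 from 13.6 to 21.6 TPM in the controls. The part of these cell types in the endothelial results was not tested.

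A second set of 27 endothelial surface, junction and signalling genes showed the same division between genes near 0 and genes that were expressed. Of the 27, 14 were under 1 TPM in all 12 cultures, and Adgrf5, Mmrn1 and Lyve1 were at 0 in all controls. Tie1, the partner receptor of Tie2, had 6.85 TPM in the forebrain and at most 0.0604 TPM in any culture. Icam2, an adhesion molecule, had 2.88 TPM in the forebrain and was at 0 in 10 of the 12 cultures. Both are fixed endothelial markers named here after their values were seen. The summed level of the list was 83.3 to 85.5 TPM in the controls, 122.0 to 129.3 TPM with crotonate, 141.7 to 159.2 TPM with MS-275 and 148.6 TPM in the forebrain. Plvap, S1pr1, Cd93, Calcrl and Ramp2 make up most of the control sum. The forebrain stood above all controls for 23 of the 27 genes, so like sums do not mean like levels of each gene.

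Of the 10 members of that list that were tested, 5 rose and none fell with crotonate, with a median log2 difference of 0.55 where all genes tested had 0.09. With MS-275, 8 rose and none fell, with a median of 0.76 where all genes had 0.08. Ecscr, which makes an endothelial surface protein, passed the filter through treated libraries alone. Leaving it out, 4 of 9 rose with crotonate (median 0.37) and 7 with MS-275 (median 0.73). Cd34, a sialomucin of endothelial and blood progenitor cells, went from 1.37, 1.33, 0.916 and 0.885 TPM in the controls to 9.04, 10.4, 10.1 and 8.75 TPM with crotonate. With MS-275 it held 18.5, 18.6, 18.6 and 15.3 TPM. Its log2 differences were 2.32 (SE 0.10, limma adjusted p = 1.06e-08) and 3.15 (SE 0.10, limma adjusted p = 2.82e-10). Rasip1, a Ras-interacting protein needed for vessel lumens, held 1.83 to 2.32 TPM in the controls, 4.64 to 5.52 TPM with crotonate and 8.22 to 10.2 TPM with MS-275, and rose in both comparisons. Plvap, a protein of the diaphragms of endothelial pores, was already at 21.1 to 23.6 TPM in the controls, above the 7.12 TPM of the forebrain, and rose to 36.3 to 43.5 TPM with crotonate. With the replicate number as a block, or with median-of-ratios scaling, 1 member of the list fell with crotonate.

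Among 17 endothelial transcription factors, 10 were tested. With crotonate 6 rose and 1 fell (median 0.30), and with MS-275 6 rose and none fell (median 0.34). With median-of-ratios scaling, 4 rose and 2 fell with crotonate. Hhex, a homeobox factor of early endothelium and liver, rose from 0.0548 to 0.172 TPM in the controls to 0.601 to 1.28 TPM with crotonate and 0.880 to 1.82 TPM with MS-275. It passed the filter through 1 crotonate and 3 MS-275 libraries, and without the filter the limma adjusted p was 0.00405 and 0.000129. Leaving Hhex out, 5 of 9 rose with crotonate and 5 with MS-275. Ets2 rose with crotonate, from 28.8 to 35.8 TPM to 43.9 to 52.8 TPM, and Ets1, another ETS factor, fell, from 28.3 to 33.6 TPM to 16.4 to 19.4 TPM. Klf4, a factor that responds to blood flow, rose with MS-275 from 4.06 to 6.77 TPM to 13.1 to 13.7 TPM. Erg, Fli1, Sox17, Sox18 and Tal1, factors that define endothelial or blood progenitor identity, were under 1 TPM in all 12 cultures. Below that level, Sox18 held 0 to 0.0696 TPM in the controls, 0.194 to 0.573 TPM with crotonate and 0.382 to 0.698 TPM with MS-275. Fli1 held 0.0519 to 0.256 TPM in the controls and 0.358 to 0.507 TPM with crotonate, and overlapped the controls with MS-275. Erg, Sox17 and Tal1 overlapped the controls in both treated groups.

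Blood-brain barrier genes were measured as a list of 21, of which 12 were tested. With crotonate 6 rose and 1 fell (median 0.53), and with MS-275 9 rose and 1 fell (median 0.63). With median-of-ratios scaling, 2 fell with crotonate. Cgnl1, a junction protein gene that passed the filter through treated libraries alone, is among those that rose in both, and leaving it out 5 of 11 rose with crotonate and 8 with MS-275. Itm2a, a membrane protein enriched in brain vessels, rose from 8.53 to 11.3 TPM in the controls to 44.3 to 49.2 TPM with crotonate and 34.4 to 40.4 TPM with MS-275. Spock2, a secreted proteoglycan, rose from 11.9 to 14.1 TPM to 30.03 to 36.8 TPM with crotonate and 29.0 to 33.3 TPM with MS-275. The amino acid transporter gene Slc7a5 fell, from 96.3 to 108 TPM to 60.5 to 67.8 TPM with crotonate and 67.1 to 71.7 TPM with MS-275. Slco1a4, Slco1c1, Slco2b1, Abcb1a, Slc38a5, Foxq1 and Foxf2 were under 1 TPM in all 12 cultures. Itm2a and Spock2 were above their forebrain levels of 20.1 and 29.8 TPM in all 4 crotonate cultures.

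The 22 genes of VEGF, angiopoietin, apelin and Notch signalling were more widely expressed, and 19 were tested. With crotonate 9 rose and 2 fell (median 0.34), and with MS-275 9 rose and 1 fell (median 0.28). With a replicate block 2 fell with MS-275, and with median-of-ratios scaling 4 fell with crotonate and 2 with MS-275. Leaving out Flt4 and Egfl8, which passed the filter through treated libraries alone, 8 of 17 rose with crotonate and 8 with MS-275. Flt4, the receptor for the VEGF ligands of lymphatic vessels, followed the pattern of Kdr. It held 0.0664, 0.0253, 0.0750 and 0.0247 TPM in the controls, 1.01, 1.06, 1.51 and 0.990 TPM with crotonate, and 2.56, 2.11, 2.55 and 2.00 TPM with MS-275. Like Kdr it passed the filter through treated libraries alone. Without the filter its log2 differences were 1.02 (SE 0.10, limma adjusted p = 2.83e-05) and 1.65 (SE 0.10, limma adjusted p = 2.24e-07). Nrp1, a VEGF and semaphorin co-receptor, rose with crotonate from 13.8 to 14.6 TPM to 18.8 to 20.8 TPM. The ligand gene Apln fell with crotonate from 89.8 to 112 TPM to 46.7 to 54.5 TPM, and Vegfb fell with MS-275 from 63.1 to 87.9 TPM to 40.0 to 53.7 TPM. Vegfb also fell with crotonate (log2 difference -0.33, limma adjusted p = 0.0283), a call lost without control replicate 4, where the difference was -0.23 (limma adjusted p = 0.0764), and also without crotonate replicate 2 or 3.

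**Figure D4:**
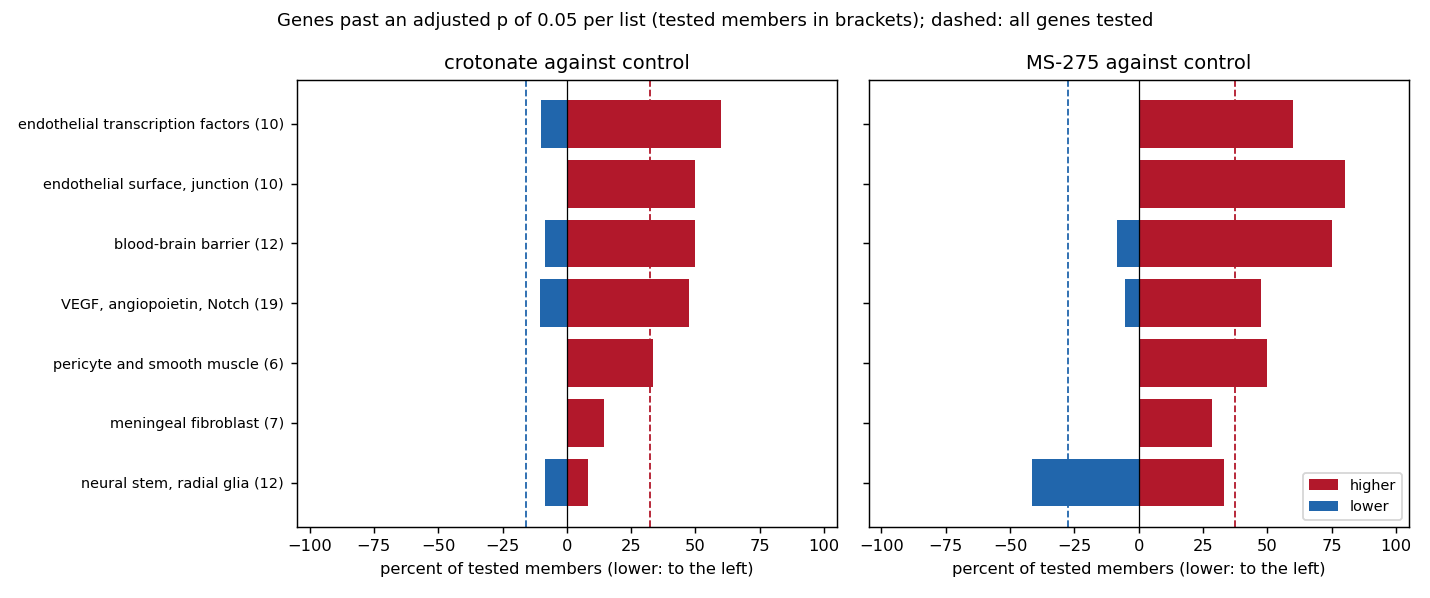
Percent of tested genes of each list that passed an adjusted p of 0.05 higher (red, right) or lower (blue, left) than control, for crotonate and MS-275, with the number tested in brackets and lists of under 5 tested genes left out. Dashed lines are the same percents over all genes tested, 32.3% higher and 15.9% lower with crotonate and 37.4% and 27.6% with MS-275. In the 4 endothelial lists the red bars reach past the dashed line in both panels. The pericyte and smooth muscle bars do so too, with 2 of 6 genes for crotonate and 3 of 6 for MS-275. The endothelial bars include genes that passed the filter through treated libraries alone.

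The NSPC identity of the cultures was checked with 12 neural stem cell and radial glia genes, all of which were tested. Their sum was 9798 to 10328 TPM in the controls, 9200 to 10089 TPM with crotonate and 13725 to 14375 TPM with MS-275. Nestin (Nes) fell with both treatments, from 346 to 396 TPM to 226 to 277 TPM with crotonate and 225 to 272 TPM with MS-275. Prom1 rose with crotonate, from 6.98 to 10.1 TPM to 24.9 to 28.8 TPM. With MS-275, Fabp7 rose from 4781 to 5122 TPM to 6550 to 7171 TPM. Vim rose from 3454 to 3868 TPM to 5839 to 6156 TPM, and Sox1 fell from 13.7 to 19.2 TPM to 8.73 to 10.3 TPM. Fabp7 and Vim make up most of the sum. In the whole list 1 rose and 1 fell with crotonate and 4 rose and 5 fell with MS-275. Among the 10 meningeal markers 7 were tested, and 1, Fn1 (fibronectin), rose with crotonate, while with a replicate block 3 rose.

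The genes beside Egfl7 and Kdr were measured in the same fit. Agpat2, an enzyme of phospholipid synthesis whose gene lies 375 bp from Egfl7, rose with crotonate by 1.17 (SE 0.16, limma adjusted p = 8.13e-05). It held 1.52 to 3.30 TPM in the controls, 5.22 to 6.23 TPM with crotonate and 7.56 to 10.9 TPM with MS-275. Because the 2 genes are so close, and strand use in the quantification is not given in the sources used here, reads between them may be shared. Notch1, the Notch receptor gene 77261 bp to the other side, had a crotonate difference of 0.03 (SE 0.10, limma adjusted p = 0.861) and rose by 0.74 with MS-275 (SE 0.10, limma adjusted p = 3.7e-05). Kit, 276105 bp from Kdr, passed in neither comparison, with 3.02 to 4.29 TPM in the controls, 4.08 to 5.22 TPM with crotonate and 2.62 to 6.24 TPM with MS-275. Srd5a3, 161201 bp to the other side, rose with MS-275 from 12.8 to 16.03 TPM to 19.8 to 23.3 TPM, and its crotonate difference was 0.17 (SE 0.08, limma adjusted p = 0.123).

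Likeness of pattern was measured as Pearson's r of log2(TPM + 1) over the 12 NSPC libraries, which share their treatments and replicate numbers. Closest to Egfl7 were Kcnn3 (r = 0.995), Asap3 (r = 0.994) and Mxra8 (r = 0.991). Closest to Kdr were Lrp2 (r = 0.987), Kifc2 (r = 0.987) and Serpini1 (r = 0.986). Closest to Ly6c1 were Tspan7 (r = 0.962), Acer3 (r = 0.957) and Nacad (r = 0.949). Lrp2 passed the filter through the 4 MS-275 libraries alone. Between the 3 endothelial genes r was 0.918 for Egfl7 and Kdr, 0.835 for Egfl7 and Ly6c1, and 0.712 for Kdr and Ly6c1. All these r hold the MS-275 values that were known when the genes were chosen. A high r between Egfl7 and Kdr follows in part from that choice, and the values are a description alone.

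In forebrain explants none of the 8 genes passed the test. The authors' deposited table compares crotonate with control, in the direction its name gives, and holds no values per library. In the authors' deposited table, 0 of the 8 genes passed an adjusted p of 0.05 by DESeq2, 1 had an unadjusted p under 0.05, and 20.3% of the 14498 genes with an adjusted p under 1 passed, 10.5% higher and 9.76% lower. Egfl7, the exception, had a log2 fold change of -0.32 (SE 0.161, p = 0.0463, DESeq2 adjusted p = 0.156) in the authors' deposited table, opposite in sign to the NSPC difference. The difference between the 2 systems was not tested. In the authors' deposited table the log2 fold changes were -0.05 for Kdr, -0.14 for Pecam1, 0.10 for Cldn5, -0.11 for Tek, 0.06 for Flt1 and -0.03 for Cdh5. For these 6 genes the DESeq2 adjusted p in the authors' deposited table ran from 0.338 to 0.898. Ly6c1 had a mean of 4.89 normalized counts there, and the authors' deposited table gives an adjusted p of 1, which it also gives where none was computed. Of the second endothelial list, 25 genes had an adjusted p in the authors' deposited table. Of these, Cd34 (-0.26), Cd93 (-0.31), Stab1 (-0.40) and Vwf (-1.02) fell in the authors' deposited table and none rose. The other endothelial lists were mixed there. Of 14 transcription factors 1 rose and 1 fell, of 20 blood-brain barrier genes 2 rose and 2 fell, and of 20 signalling genes 1 rose and 4 fell. Vegfa, the ligand of Kdr, fell by 0.95 (SE 0.0367, DESeq2 adjusted p = 1.86e-143) in the authors' deposited table. Vegfa, and the globin genes that follow, are named after their values were seen. Blood markers moved as well: of the 10 erythroid and megakaryocyte genes with an adjusted p in the authors' deposited table, 6 fell, among them Hbb-bs by 0.44 and Hba-a1 by 0.43. Their part in the endothelial values was not tested.

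Peaks were counted for a gene when they overlapped its RefSeq span extended by 1 kb. Each list comes from 1 library, so no difference between lists has a replicate check, and the lists differ in length from 5845 peaks (Kcr, MS-275) to 23427 peaks (Kac, control). Only Egfl7, Kdr and Pecam1 had a peak in any list. Flt1, Tek, Cdh5, Cldn5 and Ly6c1 had none in any of the 8, as had 35.2% of the 20956 protein-coding genes placed. Among the Kac lists, peaks were found for Egfl7 and Pecam1 in control cells (47.9% of all genes had one), for Egfl7, Kdr and Pecam1 with crotonate (47.6%) and for Pecam1 with MS-275 (17.0%). Among the Kcr lists, they were found for Pecam1 in control cells (42.1% of all genes), for Egfl7 and Pecam1 with crotonate (50.8%) and for Pecam1 with MS-275 (15.7%). In the forebrain, H3K9ac peaks were found for Kdr and Pecam1 (60.2% of all genes) and H3K9cr peaks for none of the 8 (51.6%). Within 1 kb of a RefSeq start, Egfl7 had a peak in the Kac control list (44.3% of 16805 genes with a start), Egfl7 and Kdr in Kac with crotonate (42.9%), and none of the 8 in Kac with MS-275 (12.6%). The same count gave none in Kcr control (39.1%), Egfl7 in Kcr with crotonate (46.3%), none in Kcr with MS-275 (11.6%), Kdr in H3K9ac (57.2%) and none in H3K9cr (49.4%). Here Pecam1 and Cdh5 are not counted, since they have no start in the table. In each list the share of the 8 genes with a peak was below the share over all genes.

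At Egfl7 the peaks inside the gene all begin just past the third start, whose window is the CG-rich one. The Kac control peak (chr2:26586698-26586863) begins 62 bases past that start and the Kac crotonate peak (chr2:26586695-26586937) begins 59 bases past it. The Kcr crotonate peak (chr2:26586679-26587071) begins 43 bases past it and shares 7 bases with the window. These 3 are 166, 243 and 393 bp long. The first 2 starts of Egfl7 have no peak in their windows. Outside the gene, a Kac control peak lay 7055 bp and a Kcr MS-275 peak 6313 bp before it.

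At Kdr the forebrain H3K9ac peak (chr5:75978104-75978475) covers the start, from 20 bases before to 351 bases after. The authors' fold enrichment for it is 4.26 and their -log10 q is 6.26. In the cultures the 1 Kdr peak is that of Kac with crotonate (chr5:75978713-75978904), which lies 258 to 449 bases before the start and outside the window. No Kdr peak was listed for Kac or Kcr with MS-275, the group with the highest Kdr RNA in culture, in lists of 7555 and 5845 peaks. Pecam1 had 7 peaks in the Kac control list, at least as many as which were found in 1.27% of genes, and 1 to 4 in 6 other lists. They lie within its span between chr11:106657800 and chr11:106676156. Its forebrain H3K9ac peak has a -log10 q of 4.42, and its RNA was 0.0554 to 0.441 TPM in the cultures.

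**Figure D5:**
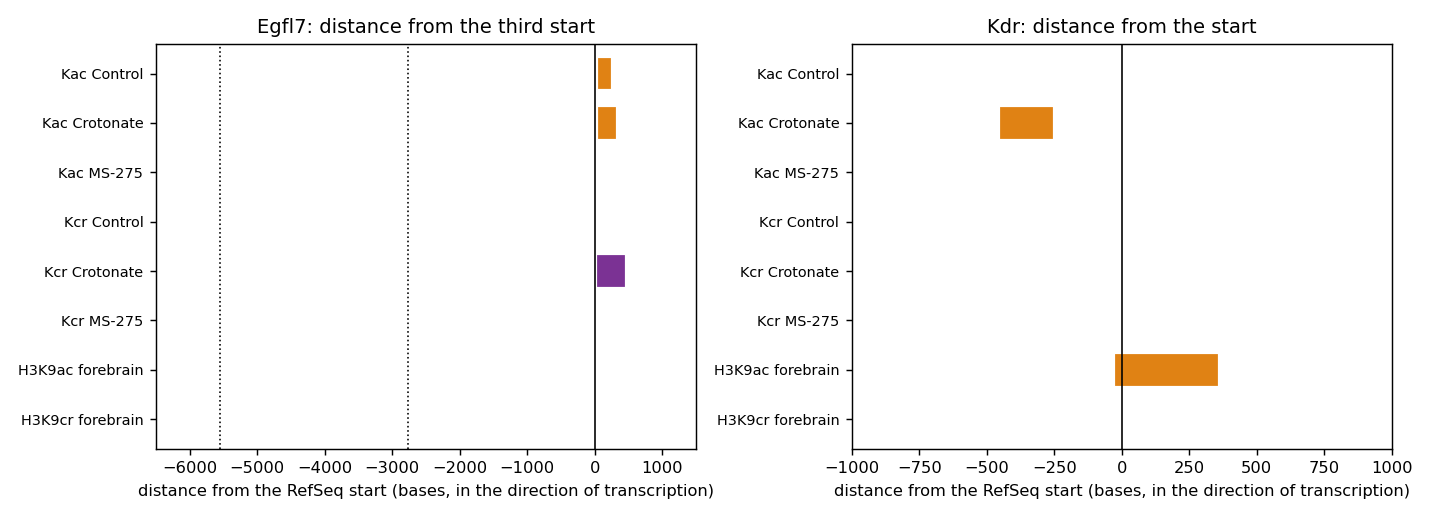
Peaks near the third start of Egfl7 and the start of Kdr in the 8 lists, as distance in bases along the direction of transcription (0 is the start, dotted lines are the other Egfl7 starts). Orange bars are acetylation lists and purple bars crotonylation lists, drawn to scale with 1 library per list. The 3 Egfl7 bars begin 43 to 62 bases past the third start, and the Kdr start is covered in the forebrain H3K9ac list.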

How the data were processed

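RNA was measured in 12 NSPC libraries, 6 explant libraries and 1 forebrain library, and peaks in 8 ChIP libraries. The submitters' processing notes name the build GRCm38 and list Bowtie2 2.3.5.1, MACS2 2.2.5, Salmon 1.0.0 and DESeq2 1.26.0. For NSPCs and forebrain, TPM values stand in a deposited table with 53974 genes. For the explants the authors deposited a table whose signal column is a mean of normalized counts, per the file headers. Its log2 fold changes, their score (the fold change over its SE) and its p values were also deposited by the authors, without values per library. The forebrain peak lists hold a score, a fold enrichment as a ratio and -log10 p and q values, as deposited by the authors, and the 6 NSPC lists hold positions alone, so their calling threshold is not given in the sources used here.

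The 8 genes and all gene lists were chosen with earlier results of these data known. Samples were grouped by title. TPM was taken as log2(TPM + 1), and genes that reached 1 TPM in 4 or more of the 12 NSPC libraries were tested in 1 limma 3.58.1 fit (R 4.3.3) with eBayes and a trend, two-sided, with Benjamini-Hochberg adjustment and a threshold of 0.05. In simulated data for crotonate against control (14196 genes in the fit), 36 of 50 genes changed 1.5-fold, 49 of 50 changed 2-fold, 48 of 50 changed 4-fold and 46 of 50 lowered to 0.5-fold were recovered, and 7 of 13996 unchanged genes were called. The changed genes were drawn from those with a control mean of at least 2 TPM, and the noise was drawn separately for each library. Recovery was therefore not measured for lower genes such as Kdr and Ly6c1. Deviations from the group means correlated across genes between the 12 pairs of libraries that share a replicate number at values from 0.119 to 0.241, and between the 36 other pairs at -0.197 to 0.0993, so replicate numbers were taken to pair libraries. Genes that passed the filter through treated libraries alone are given with the adjusted p of a fit without the filter, chosen for the text after the values were seen. The reported fit has no such block, and a fit with it was an alternative, as were another pseudocount, no filter, median-of-ratios scaling and leaving out each library. What lies in each replicate's culture is not described further, so p-values measure the spread between these samples.

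Named genes from each list are up to 2 per direction and NSPC comparison with the smallest adjusted p and the highest in the controls. The 3 genes most like each tested member and the neighbours of Egfl7 and Kdr are named too. Other genes, among them those named from the explants, were chosen after their values were seen, also where the text does not say so. The values of 1 gene that this rule names are not reported here. Peaks were assigned with an overlap of at least 1 bp. The share of genes with a peak was taken over 20956 protein-coding genes of the TPM table that have a RefSeq position on GRCm38.p6, where all placed genes had been planned. The annotation table gives no exons, so positions are given against gene spans and starts. Python 3.11.15, pandas 2.3.3, NumPy 2.4.6 and matplotlib 3.10.9 were used. No column of per-sample values was left without a sample. ChIP input and IgG libraries and a DNA methylation library were not analysed here.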

Additional observations from a re-analysis of the deposited data

Results flagged for a closer look

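Within groups of 4 libraries, the highest or lowest value was examined for a gap to its nearest neighbour above Dixon's 95% limit for the group's range in 52 genes and 156 groups. There were 7 such values, where 1 in 20 groups gives 7.8 by chance. Of the 8 endothelial genes, Egfl7 stood apart in MS-275 replicate 1 (42.6 TPM, the next 32.2 TPM) and Pecam1 in crotonate replicate 3 (0.312 TPM, the next 0.206 TPM). Cd34 was low in MS-275 replicate 4 (15.3 TPM, the next 18.5 TPM). Flt4 was high in crotonate replicate 3 (1.51 TPM, the next 1.06 TPM), and Lrp2, one of the genes most like Kdr, was low in control replicate 1 (0.0622 TPM, the next 0.132 TPM). In control replicate 4, Notch1 was high (69.2 TPM, the next 53.3 TPM), as was Gp1bb (0.866 TPM, with the other 3 controls listed at 0).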

How the results depend on the processing

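Depth is not given, so no limit from counting can be set on values near 0. Egfl7 rose with crotonate under every alternative run, with limma adjusted p from 4.93e-05 to 0.000316. The Kdr difference was positive in every run, and its limma adjusted p was 0.000167 without the filter on low values. The adjusted p of Kdr in the filtered runs is not given, since Kdr entered them through treated libraries alone. Leaving out 1 library gave log2 differences of 0.949 to 1.15 for Egfl7 and 0.924 to 1.06 for Kdr. Genes called numbered 6458 to 7107 for crotonate and 9206 to 9615 for MS-275 when 1 library was left out. With the replicate block these were 7450 and 9873, and 2 of the 8 genes were called with crotonate, as without it; it changed no call of the 3 that were tested, Egfl7, Kdr and Ly6c1. Col1a1 with crotonate passed with the block (limma adjusted p = 0.00865) and Ets2 with MS-275 did (limma adjusted p = 0.00699). A pseudocount of 0.1 TPM moved Kdr with MS-275 to 2.58, Tek to 1.57 and Ly6c1 to 2.74 on the log2 scale, as it must for low genes.

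Differences near 0 changed sign. For crotonate the Ly6c1 difference was 0.0208 with a pseudocount of 0.1 TPM. Median-of-ratios scaling gave crotonate differences of -0.117 for Fabp7, -0.104 for Notch1 and -0.0622 for Tspan7, and MS-275 differences of -0.0916 for Ets1 and -0.0358 for Nrp1. Leaving out 1 library gave crotonate ranges of -0.208 to 0.16 for Ly6c1, -0.0259 to 0.0599 for Fabp7, -0.123 to 0.262 for Gp1bb, -0.103 to 0.093 for Nacad and -0.0358 to 0.127 for Notch1. Among genes below the filter they were -0.105 to 0.0356 for Cdh5, -0.0281 to 0.19 for Cldn5 and -0.00773 to 0.0868 for Pecam1. For MS-275 the ranges were -0.0781 to 0.0935 for Cdh5, -0.0377 to 0.0538 for Ets1 and -0.0812 to 0.252 for Kit. The cause was not tested.

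The numbers of the 8 genes with a peak depend on the distance allowed. Peaks within 1 kb of a RefSeq start, an alternative chosen after seeing the data, were found for 1 gene (Kac control), 0 (Kac MS-275), 0 (Kcr control), 1 (Kcr crotonate), 0 (Kcr MS-275) and 1 (H3K9ac forebrain). Peaks touching the promoter window of 300 bases, also chosen after seeing the data, were found for 0 genes in the Kac control, crotonate and MS-275 lists, 0 in the Kcr control and MS-275 lists, 1 with Kcr crotonate (Egfl7) and 1 with H3K9ac (Kdr). With genes extended by 10 kb, Kcr MS-275 had 2. With a -log10 q of at least 5, H3K9ac had 1. In the authors' deposited explant table, Benjamini-Hochberg adjustment over all 28924 rows with a p also gave 0 of the 8 genes. No paired analysis was possible because the explant table holds no values per library and the peak lists and forebrain RNA come from 1 library each.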

Other observations

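Ly6e, a widely expressed relative of Ly6c1 looked up after the values of Ly6c1 were seen, held 47.5 to 51.7 TPM in the controls, 156 to 184 TPM with crotonate and 120 to 144 TPM with MS-275. The forebrain had 85.3 TPM. Ly6a, another relative, was at 0 in all 4 controls and in 3 of the 4 crotonate libraries, and held 0.166 to 0.772 TPM in the 4 with MS-275.

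Etv2, a factor that starts the endothelial program in the early embryo, was listed at 0 in the forebrain and held 0, 0, 0.103 and 0.333 TPM in the controls, 0.464, 1.08, 0.635 and 0.311 TPM with crotonate and 0.348, 0.806, 0.457 and 0.532 TPM with MS-275. It did not reach the filter for testing, and its crotonate and control libraries overlap. It is named here after its values were seen.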
